A study of Mus musculus with 12 samples.

Results

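A set of 7 genes of the blood-retina barrier and of vessel leakage were followed in mouse retinas at P18. They are Cldn5 (ENSMUSG00000041378), Ocln (ENSMUSG00000021638), Tjp1 (ENSMUSG00000030516), Plvap (ENSMUSG00000034845), Mfsd2a (ENSMUSG00000028655), Slco1a4 (ENSMUSG00000030237) and Abcb1a (ENSMUSG00000040584). Each was listed by name and matched by its symbol to 1 Ensembl gene, so they are 7 of the 36131 genes in the deposited table. The 12 retinas came from C57BL/6J wildtype mice, 1 library per mouse and 4 mice per group. RA-PBS mice (animals 1 to 4) stayed in room air and received PBS as placebo. O2-PBS mice (animals 5 to 8) were placed in 75% O2 with their nursing mothers from P7, returned to room air at P12 and received PBS. O2-IC100 mice (animals 9 to 12) had the same oxygen exposure and received IC100, a humanized monoclonal antibody against the inflammasome adaptor ASC, at 10 µg/g. The sample labels place all injections intraperitoneally on P12, P14 and P16. The paper describes placebo PBS as given into the vitreous and IC100 by either route, so a difference in route between O2-PBS and O2-IC100 cannot be told apart from the antibody if that held for these mice. This oxygen schedule is the oxygen-induced retinopathy (OIR) model, in which hyperoxia obliterates retinal capillaries and abnormal vessels then grow back in room air. All RNA was whole-retina RNA, so a gene of the vessel wall was read against a large background of neurons and glia.

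The inner blood-retina barrier is formed by the endothelial cells of retinal capillaries. Tight junctions seal the gaps between neighbouring cells, transport through vesicles is kept low, and carriers and efflux pumps decide which solutes cross. Plvap is a known mark of fenestrated or leaking endothelium and is scarce in mature barrier capillaries, whereas Cldn5, Mfsd2a, Slco1a4 and Abcb1a are typical of vessels with a barrier. Several of the genes are not confined to endothelium. Tjp1 and Ocln are also used by the pigment epithelium, Tjp1 by neurons and glia as well, and Slco1a4 and Mfsd2a are known in pigment epithelium too.

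Counts summed to between 14907143 and 24438082 per retina. O2-IC100 animal 10 stood apart, because 16 lens genes took 52.2% of its counts (95% Wilson interval 52.15 to 52.19%, counting error only). The same genes took 1.11 to 4.06% in RA-PBS animals 2 to 4 and at most 0.0114% in the other 8 retinas. Summed normalized CPM (counts scaled to library size with edgeR's TMM factors) of 10 rod genes were 11414 in animal 10 and 39152 to 46819 in the other 11. The TMM factor was 0.324 in animal 10 and 1.07 to 1.15 in the other 11. The same share of the total counts therefore gives a higher normalized CPM in animal 10 than in any other retina. Fold changes of the 7 genes are therefore given with all 12 animals and without animal 10, and the related lists mainly without it. Y-linked genes summed to 5.63 CPM in RA-PBS animal 4, 7.96 to 9.85 CPM in O2-PBS animals 5 to 7 and 4.04 CPM in animal 10, against 223 to 324 CPM elsewhere. A fit with this level as covariate is given beside each comparison. Nothing in the labels says whether any mice were littermates, and p-values measure the spread between these animals.

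The stretch just upstream of the start of 3 of the genes is shown because they illustrate the 3 patterns found here, a gene that was higher after oxygen (Cldn5), a gene that was lower (Slco1a4) and a gene whose animals varied (Mfsd2a). Slco1c1, a related carrier whose level was among the 3 closest to that of Slco1a4, is shown for comparison. The RefSeq promoter table of build GRCm38.p6 matched 6 of the 7 genes, all but Plvap. The 250 bases before each start are written 5′ to 3′ on the gene's own strand. Capitals mark matches on either strand to 6 short motifs, ACGTG and GCGTG (hypoxia response cores), CTTTGA (TCF/LEF), ACAAT (SOX), and AGGAAG and CGGAAG (ETS). The windows are chr16:18776597-18776846 on the plus strand for Cldn5, chr6:141856221-141856470 on the minus strand for Slco1a4, chr4:122961189-122961438 on the minus strand for Mfsd2a and chr6:141524104-141524353 on the plus strand for Slco1c1.
Cldn5: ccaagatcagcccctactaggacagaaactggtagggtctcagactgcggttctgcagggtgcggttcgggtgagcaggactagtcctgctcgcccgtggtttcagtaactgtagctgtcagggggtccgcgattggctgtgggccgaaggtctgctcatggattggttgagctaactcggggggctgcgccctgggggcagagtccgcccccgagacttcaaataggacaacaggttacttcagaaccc
Slco1a4: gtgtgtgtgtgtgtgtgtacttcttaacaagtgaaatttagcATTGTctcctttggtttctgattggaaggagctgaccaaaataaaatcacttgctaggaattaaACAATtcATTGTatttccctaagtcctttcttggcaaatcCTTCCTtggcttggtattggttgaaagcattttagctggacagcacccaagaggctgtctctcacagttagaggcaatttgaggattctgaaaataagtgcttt
Mfsd2a: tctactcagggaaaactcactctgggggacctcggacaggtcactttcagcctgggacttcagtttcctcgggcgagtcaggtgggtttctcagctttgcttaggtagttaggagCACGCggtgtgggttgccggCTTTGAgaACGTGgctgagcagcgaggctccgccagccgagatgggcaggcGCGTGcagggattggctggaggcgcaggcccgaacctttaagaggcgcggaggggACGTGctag
Slco1c1: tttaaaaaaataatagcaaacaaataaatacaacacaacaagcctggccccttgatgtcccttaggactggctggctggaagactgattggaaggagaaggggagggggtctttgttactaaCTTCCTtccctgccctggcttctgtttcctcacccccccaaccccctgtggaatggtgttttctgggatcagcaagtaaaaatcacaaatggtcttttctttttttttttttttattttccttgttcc
The Cldn5 window held none of the 6 motifs, which says only that these letters are not in it. The Slco1a4 window held 3 ACAAT matches, a motif present in 27.7% of 32851 promoter windows of this length. Both Slco1a4 and Slco1c1 had 1 AGGAAG match, which 29.5% of windows have. The Mfsd2a window had 2 ACGTG matches (16.6% of windows hold one), 2 GCGTG matches (28.2%) and 1 CTTTGA match (13.8%). GC content was 59.6% upstream of Cldn5, 61.6% upstream of Mfsd2a, 39.2% upstream of Slco1a4 and 42.8% upstream of Slco1c1. These matches describe the sequence and are not evidence of binding.

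To compare the genes with each other, normalized CPM were divided by transcript length. In RA-PBS retinas Tjp1 (21.5 ± 4.16 CPM per kb, SD, n = 4) and Cldn5 (19.7 ± 4.87 CPM per kb) were the most abundant, and these neighbours in the order differed by less than their spread. Slco1a4 followed at 6.34 ± 1.29 CPM per kb. Abcb1a (3.45 ± 0.636 CPM per kb) and Mfsd2a (3.34 ± 1.24 CPM per kb) again lay within each other's spread. Plvap was at 1.85 ± 0.309 CPM per kb and Ocln was the lowest of the 7 at 1.40 ± 0.227 CPM per kb. In O2-PBS retinas the order had changed. Cldn5 was first at 34.3 ± 8.14 CPM per kb, Tjp1 was next at 24.1 ± 1.12 CPM per kb and Plvap came next at 3.41 ± 0.209 CPM per kb, while Slco1a4 had moved down to the last place but 1 at 2.51 ± 0.845 CPM per kb. The genes between Tjp1 and Ocln, which were Plvap, Abcb1a (2.91 ± 0.303 CPM per kb), Mfsd2a (2.59 ± 0.679 CPM per kb) and Slco1a4, lay close together, and Abcb1a, Mfsd2a and Slco1a4 differed by less than their spread. In the O2-IC100 retinas without animal 10 (n = 3) Cldn5 was at 34.4 ± 2.38, Tjp1 at 18.7 ± 0.580, Slco1a4 at 3.36 ± 0.487 and Ocln at 1.504 ± 0.189 CPM per kb.

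**Figure D1:**
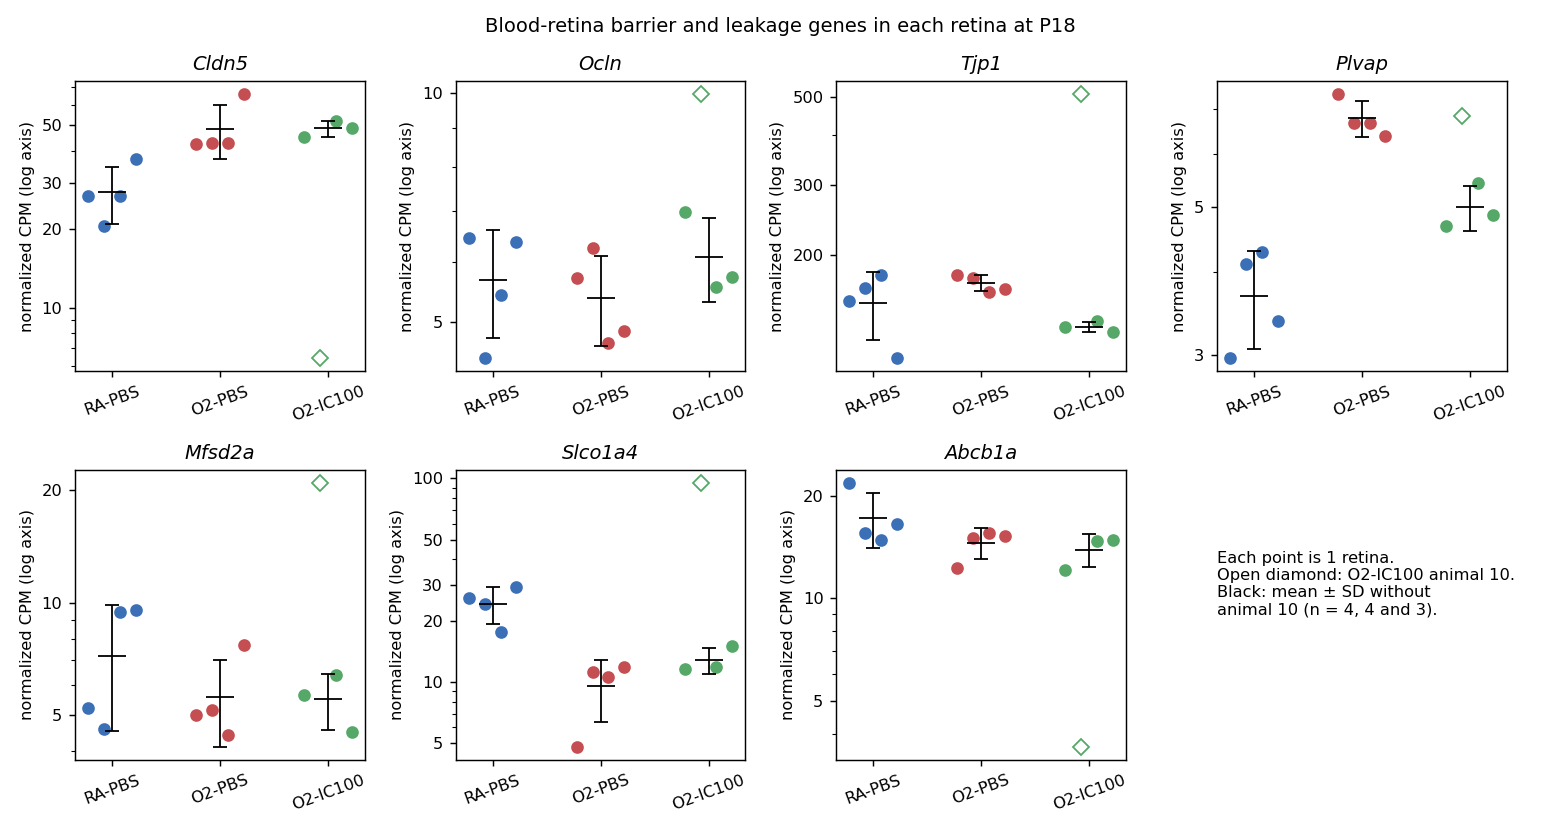
Normalized CPM of the 7 genes (log axis) in each of the 12 retinas by group, with the mean ± SD drawn without animal 10. Cldn5 and Plvap were higher in all 4 O2-PBS retinas than in any RA-PBS retina, Slco1a4 was lower in all 4, and the open diamond of animal 10 lies far from its group for Cldn5, Tjp1, Mfsd2a, Slco1a4 and Abcb1a.

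The first comparison, O2-PBS against RA-PBS, asks what the oxygen exposure left behind in placebo retinas at P18. Cldn5 and Plvap were higher after oxygen, by 1.74-fold and 1.84-fold, and Slco1a4 was 2.52-fold lower, whereas Ocln, Tjp1, Mfsd2a and Abcb1a did not pass the thresholds. A gene was called when its fold change was at least 1.5, its p-value under 0.05 and its Benjamini-Hochberg adjusted p-value under 0.1 over all genes tested, by the quasi-likelihood F test of edgeR (two-sided). With all 12 animals in the fit, 1 of the 7 genes was called higher (Plvap) and 0 lower, against 0.782% of 16489 genes called higher and 0.0243% called lower. Without animal 10, 2 of 7 were called higher (Cldn5 and Plvap) and 1 lower (Slco1a4), against 4.09% higher and 2.18% lower of 16688 genes. The fold changes were nearly the same in both fits, since animal 10 is in neither group, and it was the shared estimate of the spread that differed. The single gene with an unadjusted p under 0.05 in the fit of all 12 animals was Plvap, and without animal 10 there were 3. Over the whole table, 1174 of 16489 genes had such an edgeR p with all 12 animals and 3648 of 16688 without animal 10. DESeq2 with all 12 animals called 1 gene higher and 0 lower but gave no p for Slco1a4, and the same tool without animal 10 called 2 higher and 1 lower. Whole-retina RNA cannot tell fewer or more vessel cells from less or more RNA per cell, here or in any comparison below.

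Among the junction genes, Cldn5 encodes claudin-5, the main claudin of barrier endothelium. Its normalized CPM were 26.9, 20.7, 26.8 and 37.3 in RA-PBS animals 1 to 4 and 42.6, 42.9, 42.9 and 65.9 in O2-PBS animals 5 to 8. The lowest O2-PBS retina was above the highest RA-PBS retina, and 3 of the O2-PBS values lay close together with animal 8 well above them. The log2 fold change was 0.80 ± 0.47 (SE, 95% interval -0.23 to 1.83, adjusted p = 0.915) with all 12 animals and 0.80 ± 0.18 (0.42 to 1.18, adjusted p = 0.0138) without animal 10. Ocln encodes occludin, a tight junction membrane protein. It was at 6.45, 4.49, 5.44 and 6.37 CPM in RA-PBS and at 5.73, 6.26, 4.69 and 4.88 CPM in O2-PBS, and the groups overlapped throughout. Its log2 fold change of -0.08 had a 95% interval from -0.44 to 0.29 without animal 10 (edgeR adjusted p = 0.828), which leaves out a 1.5-fold rise or fall, and -0.57 to 0.41 with all 12 animals. Tjp1 encodes ZO-1, the scaffold that ties junction proteins to actin. RA-PBS values were 153, 165, 177 and 110 CPM, with animal 4 the lowest, and O2-PBS values were 178, 175, 162 and 164 CPM. The groups overlapped, and the log2 fold change was 0.17 (95% interval -0.09 to 0.42, edgeR adjusted p = 0.449) without animal 10 and 0.16 (-0.73 to 1.06) with all 12.

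Of the 2 genes tied to vesicles, Plvap encodes the protein of the diaphragms that span caveolae and fenestrae. RA-PBS retinas had 2.97, 4.11, 4.27 and 3.37 CPM, or 53 to 85 counts, and O2-PBS retinas had 7.36, 6.67, 6.67 and 6.37 CPM, or 115 to 128 counts. All 4 O2-PBS values were above all RA-PBS values and their spread was small. The log2 fold change was 0.88 ± 0.19 (95% interval 0.47 to 1.29, adjusted p = 0.0796) with all 12 animals, and 0.88 ± 0.16 (0.54 to 1.21, adjusted p = 0.00394) without animal 10. In the fit of all animals this call was narrow, since leaving out any 1 of the other 11 animals raised its adjusted p to between 0.123 and 0.282. Mfsd2a encodes the lipid carrier that holds vesicle transport down in barrier endothelium. Its values were 5.22, 4.59, 9.44 and 9.53 CPM in RA-PBS, split into a low pair and a high pair, and 5.00, 5.16, 4.41 and 7.71 CPM in O2-PBS. The O2-PBS range lay mostly within the RA-PBS range, and the log2 fold change of -0.37 had a 95% interval from -0.92 to 0.19 without animal 10 (edgeR adjusted p = 0.4475), too wide to tell a fall of 1.5-fold from no change, and from -1.40 to 0.66 with all 12.

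Slco1a4 and Abcb1a are the transporters. Slco1a4 encodes an organic anion carrier of the OATP family that is strong in brain and retinal capillaries. RA-PBS retinas had 25.9, 24.3, 17.5 and 29.3 CPM and O2-PBS retinas had 4.82, 11.2, 10.6 and 11.9 CPM. The lowest RA-PBS retina was above the highest O2-PBS retina, and animal 5 was the lowest of all. The log2 fold change was -1.34 ± 0.64 (95% interval -2.74 to 0.07, adjusted p = 0.739) with all 12 animals and -1.33 ± 0.23 (-1.84 to -0.83, adjusted p = 0.00385) without animal 10. Abcb1a encodes P-glycoprotein, the efflux pump of barrier vessels. It was at 21.9, 15.6, 14.9 and 16.5 CPM in RA-PBS and 12.3, 15.1, 15.5 and 15.3 CPM in O2-PBS. Of the RA-PBS retinas, 3 lay above every O2-PBS retina and animal 3 lay within the O2-PBS range, and the log2 fold change of -0.24 (95% interval -0.54 to 0.06, edgeR adjusted p = 0.342, without animal 10, and -0.97 to 0.49 with all 12) was not called. Reads of both transporters can be shared with close relatives, which Kallisto divides by estimate. Abcb1b, the paralog of Abcb1a, was at 0.617 to 1.94 CPM in RA-PBS and 1.61 to 2.59 CPM in O2-PBS and was not called (log2 fold change 0.88, edgeR adjusted p = 0.136 without animal 10). Slco1a1, Slco1a5 and Slco1a6 each stayed under 1 CPM in all retinas but animal 10, where Slco1a5 reached 8.84 CPM, and Mfsd2b, a relative of Mfsd2a, was at 10.7 to 24.003 CPM in RA-PBS and 20.9 to 26.8 CPM in O2-PBS without being called.

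**Figure D2:**
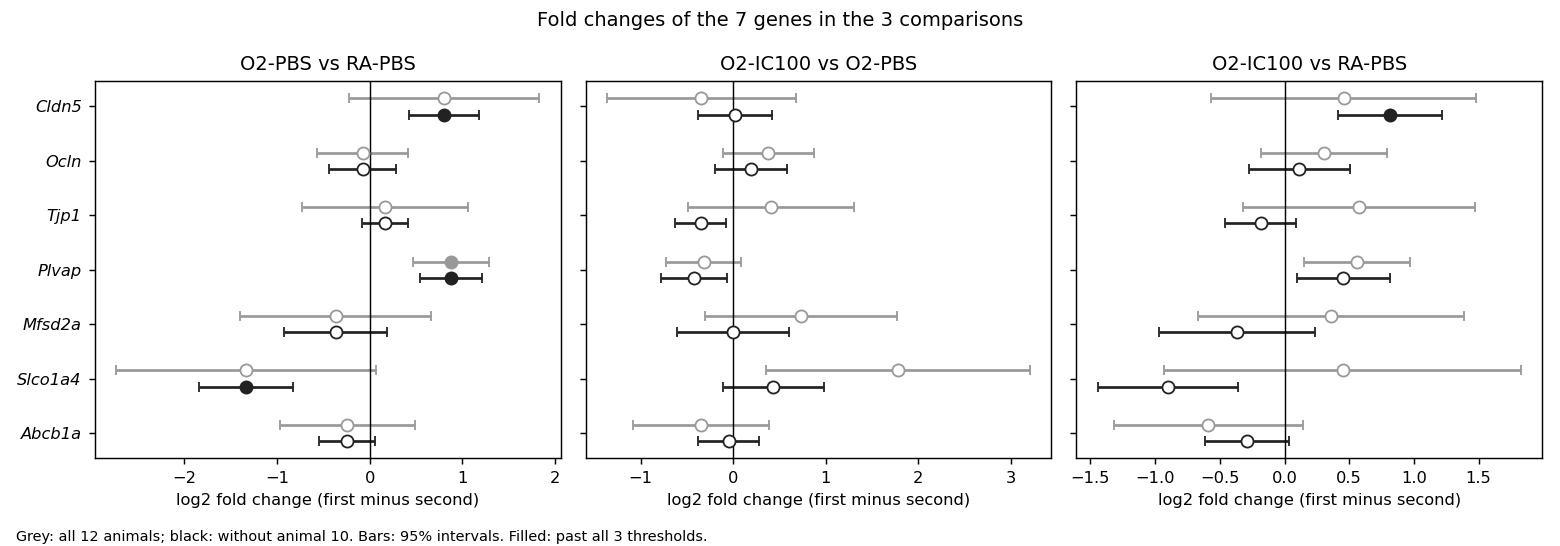
Log2 fold changes (first group minus second) of the 7 genes in the 3 comparisons with 95% intervals, grey for all 12 animals and black without animal 10, filled where all 3 thresholds were passed. Without animal 10 the filled points are Cldn5, Plvap and Slco1a4 for O2-PBS against RA-PBS and Cldn5 for O2-IC100 against RA-PBS, and none for O2-IC100 against O2-PBS.

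Lists read as markers of other tissue or other cells also differed between groups or single retinas. A list of 12 genes of retinal pigment epithelium and choroid melanocytes summed to 497 to 779 CPM in RA-PBS, 355 to 465 CPM in O2-PBS and 417 to 429 CPM in the other O2-IC100 retinas, with 11519 CPM in animal 10. Rpe65 was at 9.82 to 28.5 CPM in RA-PBS and 2.43 to 10.6 CPM in O2-PBS, and Ttr at 51.3 to 128 and 22.2 to 65.2 CPM. In animals 9, 11 and 12 Rpe65 was at 11.6, 17.5 and 15.3 CPM, above every O2-PBS value. Ttr was at 52.8, 67.6 and 70.2 CPM there, overlapping O2-PBS. Most of each sum thus came from other genes of the list, and the part of neural retina in the sums was not tested. None of the 12 list genes was at 0 in every library, and 7 of the 12 were called lower in O2-PBS than in RA-PBS without animal 10 (median log2 fold change -1.14). Between O2-IC100 and O2-PBS without animal 10, none of the 12 was called. Of the 12, 10 were above 0 there (median log2 fold change 0.64), beside 50.5% of all genes. With their mean level as a covariate, a fit added after the data were seen and without animal 10, Slco1a4 had a log2 fold change of -1.45 (edgeR adjusted p = 0.0102), Cldn5 0.88 (0.0332) and Plvap 1.04 (0.00794), and all 3 remained called. Mfsd2a went to 0.10 from -0.37 in that fit. With the Y-linked level as covariate and without animal 10, the values were -1.34 for Slco1a4 (edgeR adjusted p = 0.0117), 0.80 for Cldn5 (0.0329) and 0.89 for Plvap (0.0166). RA-PBS animal 1, the one room air retina with almost no lens RNA, had 25.9 CPM of Slco1a4, within the range of the other 3. Without animals 1 and 10 together, 2 genes were called higher and 1 lower. The part of lens tissue in these results was not tested. The summed level of 10 Müller glia genes was 3663 to 5000 CPM in RA-PBS and 3157 to 3493 CPM in O2-PBS, without overlap, and 3470 to 3814 CPM in animals 9, 11 and 12. Of these genes 1 was called higher and 2 lower after oxygen without animal 10. The 9 corneal and conjunctival genes summed to 56.4 CPM in O2-PBS animal 6 against 2.09 to 2.55 CPM in the other O2-PBS retinas. The part of either list in the barrier gene results was not tested.

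Because the vessel wall itself changes in OIR, each gene was also set against 19 general endothelial genes of the same retina. Their mean log2 CPM was 3.45 ± 0.16 (SD, n = 4) in RA-PBS, 4.50 ± 0.16 in O2-PBS, 3.97 ± 0.11 in O2-IC100 without animal 10 (n = 3) and 1.83 in animal 10. All 19 were above 0 on the log2 fold change scale in O2-PBS against RA-PBS, with a median of 1.21 beside -0.01 over all genes tested. Of the 19, 13 were called higher without animal 10 (4.09% of all genes) and 3 with all 12 animals (0.782%). Relative to this mean, 5 of the 7 barrier genes were lower after oxygen. The mean itself rose, so a gene with an unchanged level is also lower relative to it, without overlap if its spread is small. The permutation test given below therefore does not tell a fall of the gene from the rise of the endothelial genes. The share of all genes that is lower in this sense was not computed. Slco1a4 was 1.42, 1.17, 0.48 and 1.47 log2 units above the endothelial mean in RA-PBS animals and -2.32, -0.84, -0.98 and -1.07 relative to it in O2-PBS animals, a difference of -2.44. The differences were -1.37 for Mfsd2a, -1.29 for Abcb1a, -1.13 for Ocln and -0.87 for Tjp1. Without animal 10, the log2 fold changes of the genes themselves were -1.33 for Slco1a4, -0.37 for Mfsd2a, -0.24 for Abcb1a, -0.08 for Ocln and 0.17 for Tjp1. Of these only that of Slco1a4 was called. For each of these 5 genes the groups did not overlap (exact two-sided permutation test, p = 0.0286, the smallest that 4 against 4 allows, and adjusted p = 0.0667 over 21 tests, or 0.0923 in the 21 tests without animal 10). Leaving out any 1 of these 8 retinas raised the smallest possible exact permutation p to 0.0571, and then none of the 5 had an adjusted p under 0.1. Cldn5 differed by -0.25 (exact permutation p = 0.371, adjusted p = 0.52) and Plvap by -0.18 (exact permutation p = 0.143, adjusted p = 0.231). For Tjp1, Ocln, Mfsd2a and Slco1a4, which cells outside vessels also express, the ratio also falls when the endothelial genes rise and RNA from those other cells does not.

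**Figure D3:**
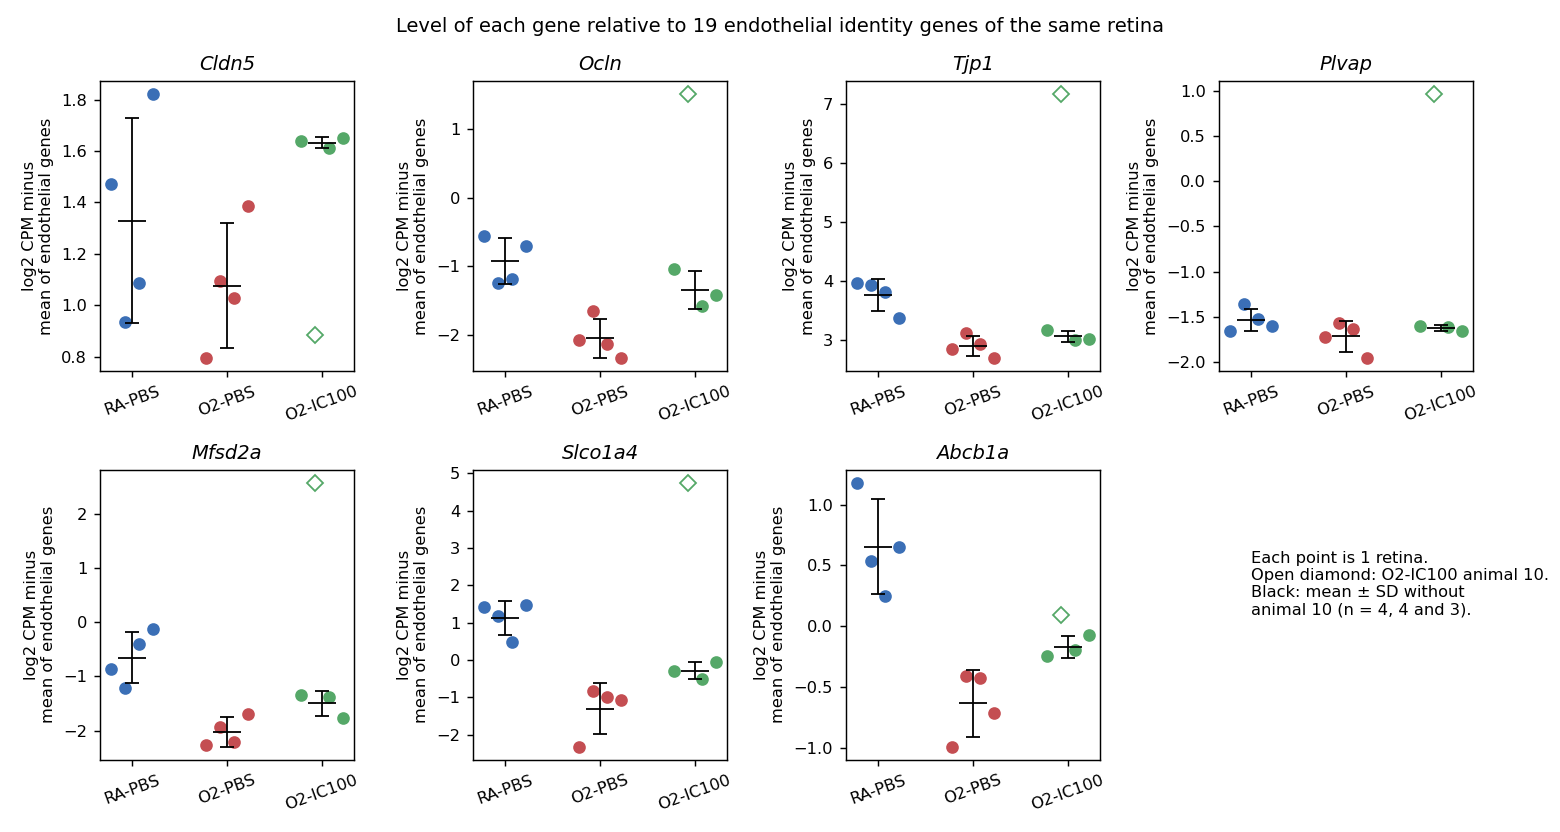
Log2 CPM of each gene minus the mean log2 CPM of 19 endothelial genes of the same retina, by group, with mean ± SD drawn without animal 10. Slco1a4, Mfsd2a, Abcb1a, Ocln and Tjp1 were lower in all 4 O2-PBS retinas than in any RA-PBS retina, while Cldn5 and Plvap overlapped.

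The second comparison, O2-IC100 against O2-PBS, asks what the antibody changed after oxygen. None of the 7 genes was called in either fit. The background was 0% higher and 0% lower with all 12 animals, where 2784 genes had an unadjusted p under 0.05 by edgeR and DESeq2 called 29 higher and 96 lower, and 0.216% higher and 0.731% lower without animal 10. By edgeR's unadjusted p under 0.05 there was 1 of 7 genes with all animals (Slco1a4) and 2 of 7 without animal 10 (Tjp1 and Plvap). Without animal 10, 3201 of 16688 genes over the whole table had such a p. Of the 7, DESeq2 called 0 with and without animal 10 (with no p for Slco1a4 in the former), and limma voom called 0 with all 12. Plvap was at 4.68, 5.42 and 4.85 CPM in O2-IC100 animals 9, 11 and 12 and at 6.82 CPM in animal 10. The 3 former values were below every O2-PBS value and above every RA-PBS value. The log2 fold change against O2-PBS was -0.42 (95% interval -0.78 to -0.07, edgeR adjusted p = 0.212) without animal 10 and -0.32 (-0.73 to 0.09, adjusted p = 0.368) with it. Tjp1 was at 131, 136 and 128 CPM in animals 9, 11 and 12 and at 507 CPM in animal 10. The former lay below all O2-PBS values but within the RA-PBS range, and the log2 fold change was -0.35 (-0.62 to -0.08, edgeR adjusted p = 0.191) without animal 10 and 0.41 (-0.49 to 1.304, adjusted p = 0.591) with it.

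Cldn5 stood at 45.1, 51.8 and 49.1 CPM in O2-IC100 animals 9, 11 and 12, within the O2-PBS range, and at 6.44 CPM in animal 10. Its log2 fold change against O2-PBS was 0.02 without animal 10 (95% interval -0.38 to 0.42, edgeR adjusted p = 0.963), so a change of 1.5-fold in either direction lay outside the interval, and -0.34 (-1.37 to 0.68, adjusted p = 0.698) with all 12. Slco1a4 was at 11.7, 11.9 and 15.002 CPM in animals 9, 11 and 12, near or above the O2-PBS maximum of 11.9 CPM, and at 95.1 CPM in animal 10. The log2 fold change was 0.43 (-0.11 to 0.98, edgeR adjusted p = 0.351) without animal 10 and 1.78 (0.36 to 3.21, adjusted p = 0.287) with it, so that value was set by 1 retina. The same retina held 8.84 CPM of Slco1a5, 584 CPM of Rpe65, 3207 CPM of Ttr and 8249 CPM over 7 red blood cell genes, against 83.7 to 259 CPM of the latter in the other 11, and the part of other tissue in its Slco1a4 level was not tested. Mfsd2a was at 5.64, 6.38 and 4.51 CPM in animals 9, 11 and 12 and at 20.96 CPM in animal 10, and its log2 fold change was -0.000484 (-0.61 to 0.60, edgeR adjusted p = 0.999) without animal 10 and 0.73 (-0.31 to 1.77, adjusted p = 0.414) with it. Ocln, at 6.97, 5.57 and 5.74 CPM with 9.97 CPM in animal 10, had a log2 fold change of 0.19 (-0.20 to 0.58, edgeR adjusted p = 0.567) without animal 10 and 0.38 (-0.11 to 0.87, adjusted p = 0.371) with it. Abcb1a, at 12.1, 14.8 and 14.9 CPM with 3.66 CPM in animal 10, had one of -0.05 (-0.38 to 0.28, edgeR adjusted p = 0.877) without animal 10 and -0.35 (-1.08 to 0.39, adjusted p = 0.580) with it. The Y-linked level differed between these groups, being low in 3 of 4 O2-PBS retinas and high in animals 9, 11 and 12. With it as covariate and without animal 10, genes called over the whole table went from 36 higher and 122 lower to 25 and 36, and none of the 7 was called. Tjp1 then had a log2 fold change of -0.57 (edgeR adjusted p = 0.111) and Plvap one of -0.45 (0.249).

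Set against the 19 endothelial genes, whose mean was lower in O2-IC100 than in O2-PBS retinas, several genes lay higher under the antibody. Without animal 10 the difference was 1.02 for Slco1a4, 0.70 for Ocln, 0.56 for Cldn5 and 0.46 for Abcb1a, and the 3 O2-IC100 retinas lay above all 4 O2-PBS retinas for each. The endothelial mean fell from 4.50 to 3.97, so a gene with an unchanged level also lies higher relative to it. The permutation test given below does not tell that from a rise of the gene. The log2 fold changes of the 4 genes themselves were 0.43, 0.19, 0.02 and -0.05 in that order, and none was called. The share of all genes that lies higher in this sense was not computed. With 4 against 3 animals the exact two-sided permutation test cannot go below p = 0.0571, which each of the 4 genes reached. Their adjusted p of 0.0923 is under the 0.1 used here for adjusted values, while no unadjusted p in this design can be under 0.05. Mfsd2a differed by 0.53 (exact permutation p = 0.114), Tjp1 by 0.16 (exact permutation p = 0.229) and Plvap by 0.09 (exact permutation p = 0.457). With animal 10 included, Slco1a4 (2.27), Ocln (1.42) and Abcb1a (0.53) had adjusted p = 0.0667 in the exact permutation test, but animal 10 had an endothelial mean far below the others and its values weighed most in the first 2 differences.

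The third comparison, O2-IC100 against RA-PBS, asks what still differed from room air under the antibody. With all 12 animals none of the 7 genes was called, beside 0% of all genes higher and 0% lower (2183 with an unadjusted p under 0.05, and 220 higher and 79 lower by DESeq2). Of the 7 genes, 1 had an unadjusted p under 0.05 by edgeR (Plvap). DESeq2 and limma voom with all 12 animals also called 0 of them. Without animal 10, Cldn5 was called higher and no gene lower, 1 of 7 against 0.947% of all genes higher and 0.617% lower. An unadjusted p under 0.05 by edgeR was seen for 3 of the 7, beside 2595 of 16688 genes over the whole table. Cldn5 was 1.76-fold higher (log2 fold change 0.82 ± 0.19, 95% interval 0.42 to 1.22, edgeR adjusted p = 0.0648), and animals 9, 11 and 12 all lay above the highest RA-PBS retina. With animals 1 and 10 both left out the edgeR adjusted p of Cldn5 was 0.101, above the threshold. Slco1a4 had a log2 fold change of -0.90 ± 0.25 (-1.44 to -0.36) that missed the adjusted threshold in edgeR (adjusted p = 0.110) and passed it in DESeq2 without animal 10 (adjusted p = 0.0143) and with the pigment epithelium covariate (0.0817). All 3 retinas were below the lowest RA-PBS retina. Plvap had a log2 fold change of 0.45 (0.09 to 0.81, edgeR adjusted p = 0.210), and Abcb1a one of -0.29 (-0.62 to 0.03, edgeR adjusted p = 0.377). Values for Ocln (0.11, edgeR adjusted p = 0.807), Tjp1 (-0.18, edgeR adjusted p = 0.515) and Mfsd2a (-0.37, edgeR adjusted p = 0.562) came from overlapping groups. With all 12 animals the log2 fold changes were 0.46 for Cldn5 (edgeR adjusted p = 0.630), 0.45 for Slco1a4 (0.731), 0.56 for Plvap (0.374), -0.59 for Abcb1a (0.407), 0.30 for Ocln (0.501), 0.57 for Tjp1 (0.487) and 0.36 for Mfsd2a (0.709), so the signs of Slco1a4, Tjp1 and Mfsd2a turned with animal 10. With the Y-linked covariate and without animal 10, Cldn5 was at 0.82 (edgeR adjusted p = 0.0731) and Slco1a4 at -0.89 (0.115). Relative to the endothelial mean and without animal 10, Slco1a4 was lower by 1.42, Mfsd2a by 0.84, Abcb1a by 0.82 and Tjp1 by 0.71 on the log2 scale, each at the smallest exact permutation p of 0.0571. That mean was itself higher than in RA-PBS (3.97 against 3.45), so a gene with an unchanged level is also lower relative to it. The permutation test does not tell that from a fall of the gene. The 2 comparisons with O2-PBS share its 4 retinas, and both with RA-PBS share those of RA-PBS, so the values of 1 gene in the 3 comparisons are not independent.

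**Figure D4:**
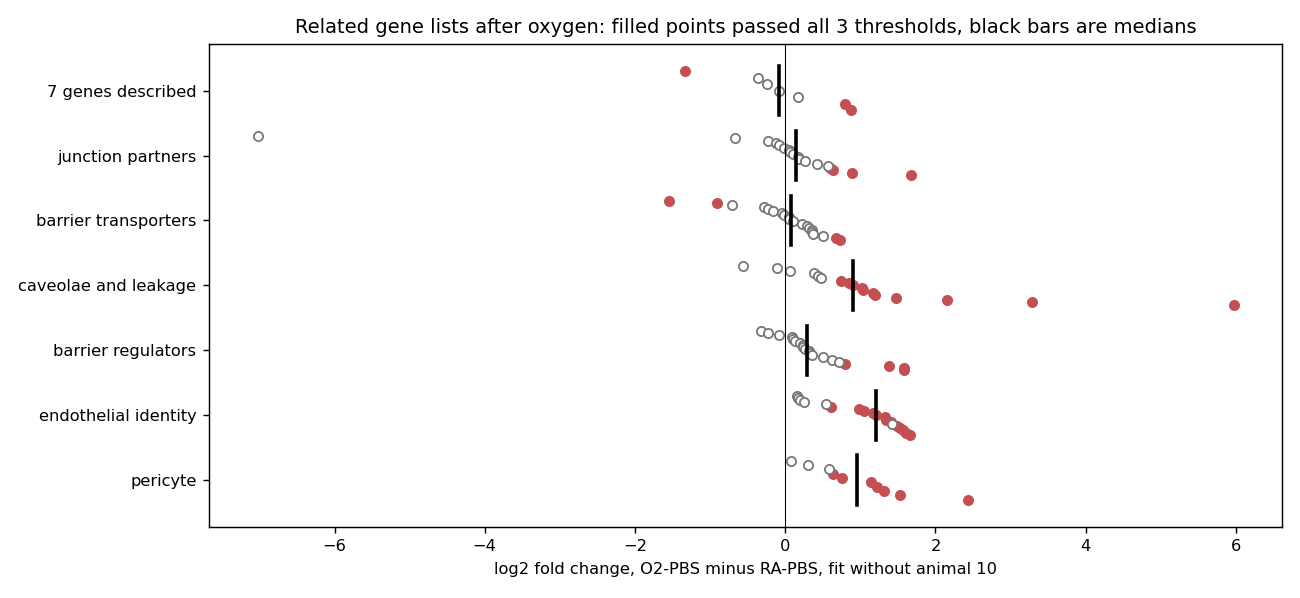
Log2 fold changes of O2-PBS minus RA-PBS without animal 10 for the 7 genes and 6 related lists, 1 point per tested gene, filled where called, with a black bar at each median. The lists of caveolae and leakage genes, endothelial genes and pericyte genes lie mostly to the right of 0. So do 17 of 20 regulators, at a smaller median of 0.29, and the junction and transporter lists lie around 0.

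Lists of related genes were read in the same fits, each described by its counts and median and not tested as a list. They were chosen with earlier results of these data known, so the values over all genes given beside them are no test of the lists. The share of all genes called without animal 10 was 4.09% higher and 2.18% lower after oxygen, and 0.216% higher and 0.731% lower under IC100 against O2-PBS. Of 19 junction partners 18 were tested, and 4 were called higher after oxygen and 0 lower without animal 10, with a median log2 fold change of 0.14 (2 higher and 0 lower with all animals). Cdh5, VE-cadherin of the adherens junction, rose from 7.69 to 14.1 CPM in RA-PBS to 32.5 to 42.3 CPM in O2-PBS (log2 fold change 1.67, edgeR adjusted p = 7.57e-05), and F11r, the junctional adhesion molecule A, rose by 0.89 (edgeR adjusted p = 0.00435). Esam, an endothelial adhesion molecule, rose by 0.60 (0.0065), and Ctnna1, alpha-catenin, had a log2 fold change of 0.43, under the fold threshold. Under IC100 and without animal 10, Cdh5 was the 1 junction partner called lower than in O2-PBS (log2 fold change -0.83, edgeR adjusted p = 0.0545), at 17.8, 21.03 and 22.2 CPM, values between those of both PBS groups. It was still called higher than RA-PBS (0.84, edgeR adjusted p = 0.0436). With all 12 animals, 0 junction partners were called in either IC100 comparison. Esam had a log2 fold change of -0.42 against O2-PBS (edgeR adjusted p = 0.143).

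Among 20 barrier transporters, without animal 10, oxygen left 2 called higher and 2 lower, and the median log2 fold change was 0.08 (1 higher and 0 lower with all animals). Slco1c1, the thyroxine carrier of brain and retinal capillaries, fell like its relative Slco1a4. It had 14.3, 12.0, 10.2 and 18.8 CPM in RA-PBS and 3.68, 7.45, 8.14 and 10.1 CPM in O2-PBS (log2 fold change -0.91, edgeR adjusted p = 0.0451), and the groups did not overlap, though the highest O2-PBS and lowest RA-PBS values nearly met. In animals 9, 11 and 12 it was at 6.49, 5.81 and 7.06 CPM, called lower than RA-PBS (-1.08, edgeR adjusted p = 0.0864), with 38.8 CPM in animal 10. This was the 1 transporter called in that comparison, and with all 12 animals or with the Y-linked covariate there were 0. Slc19a3, a thiamine transporter, fell from 1.16 to 3.37 CPM to 0.573 to 0.776 CPM (log2 fold change -1.55, edgeR adjusted p = 0.0185), a difference resting on low levels. Slco2b1, another organic anion carrier (0.67, edgeR adjusted p = 0.00679), and Slc7a1, a cationic amino acid carrier (0.73, edgeR adjusted p = 0.00961), rose. No transporter was called between O2-IC100 and O2-PBS without animal 10 (1 lower with the Y-linked covariate), and the lowest p-values there belonged to Slc16a1, a lactate carrier (log2 fold change 0.45, edgeR adjusted p = 0.110), and Insr, the insulin receptor (-0.51, 0.115).

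Of 17 caveolae and leakage genes tested, 11 were called higher and 0 lower after oxygen without animal 10, with a median log2 fold change of 0.91 beside -0.01 over all genes (5 higher and 0 lower with all animals). Vegfa, the growth factor that opens vessels and drives their growth, rose from 181 to 199 CPM to 386 to 478 CPM (log2 fold change 1.19, edgeR adjusted p = 1.14e-05). Angpt2, an antagonist of the stabilizing receptor Tie2, rose by 2.16 on the log2 scale (edgeR adjusted p = 0.000198) and Apln, apelin of sprouting tip cells, by 3.29 (0.000103). Esm1, a tip cell proteoglycan, was at 0 to 0.278 CPM in RA-PBS and 5.58 to 11.2 CPM in O2-PBS (edgeR adjusted p = 1.14e-05). Without animal 10, IC100 retinas had 3 genes of the list called lower than O2-PBS and 0 higher. With the Y-linked covariate added there were 0, as with all 12 animals. They are Angpt2 (log2 fold change -1.27, edgeR adjusted p = 0.0542), Ehd2, which stabilizes caveolae (-0.71, 0.0516), and Esm1 (-1.34, 0.0997). Esm1 and Angpt2 in animals 9, 11 and 12 were at 2.40 to 4.32 CPM and 8.78 to 11.7 CPM, above all RA-PBS values and below all O2-PBS values. Plvap lay in the same position, between both PBS groups, without passing the test.

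Of 20 barrier regulators, 4 were called higher after oxygen and 0 lower without animal 10, and their median log2 fold change was 0.29 (1 higher and 0 lower with all animals). Sox18 and Sox7, transcription factors of endothelium, both rose by 1.58 on the log2 scale (edgeR adjusted p = 0.00194 and 0.00269). Foxf2, a factor of pericytes needed for the barrier, rose by 1.38 (edgeR adjusted p = 0.0031), and Ppard had a log2 fold change of 0.33, under the fold threshold. No regulator was called between O2-IC100 and O2-PBS. The smallest p-values there were those of Adgra2, the receptor that passes Wnt7 signals to brain endothelium (log2 fold change -0.30, edgeR adjusted p = 0.194), and Ppard (-0.29, 0.214). Under IC100 and without animal 10, 3 regulators were still called higher than RA-PBS (2 with the Y-linked covariate and 0 with all 12 animals), with log2 fold changes of 1.25 for Foxf2 (edgeR adjusted p = 0.0415), 1.15 for Sox7 (0.0727) and 1.01 for Sox18 (0.0857). The 10 pericyte genes were read as markers of the other cell of the capillary wall. After oxygen 7 were called higher and 0 lower without animal 10, with a median log2 fold change of 0.95 (1 higher and 0 lower with all animals). Against O2-PBS and without animal 10, 3 were called lower under IC100 and 0 higher, and none with all 12 animals. Their summed level was 599 to 750 CPM in RA-PBS, 837 to 1031 CPM in O2-PBS and 775 to 840 CPM in O2-IC100 without animal 10.

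For each gene the 3 genes whose log2 level was closest to it, after both were centred on their own mean, were sought over the 11 retinas without animal 10 among 14954 genes at a mean of at least 1 CPM. The measure was the root mean square difference in log2 units, given as a description. Slco1a4 was followed by Ly6c1 (0.27), Slco1c1 (0.28) and Cyp2j9 (0.28), where the gene in the middle of that order differed by 0.72 and Slco1a4 itself had an SD of 0.73. The closest to Cldn5 were Spon2 (0.16), Kctd12b (0.18) and Sat1 (0.18), against an SD of 0.49. Plvap was closest to Pbxip1 (0.09), Tead3 (0.10) and Ahr (0.11), against an SD of 0.42. Mfsd2a was closest to Stac (0.23), Rspo2 (0.24) and Pmp22 (0.25), against an SD of 0.40. Tjp1 was closest to Dag1 (0.05), Heatr5b (0.06) and Odf2 (0.06), Ocln to Ccdc28b (0.10), Zfp57 (0.10) and Tom1l1 (0.11), and Abcb1a to Coq8a (0.08), Mtrf1l (0.09) and Zfp41 (0.10). Tjp1, Ocln and Abcb1a varied little over the 11 retinas, with SDs of 0.23, 0.20 and 0.22.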

How the data were processed

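Retinal RNA of 12 mice was measured by polyA-selected, 150 bp paired-end RNA-seq. The authors pseudoaligned reads to the GRCm39_104 transcriptome with Kallisto and summed transcripts per gene with tximport (versions are not given in the sources used here), and the values they deposited are gene-level expected counts without library scaling. Of its values 42.2% were not whole numbers and were rounded. Groups came from the sample labels, which end 75% O2 at P12, while the series design names P11 as its last day. The labels name an RNeasy kit and the paper Trizol for RNA extraction. The 7 genes and all related lists were chosen with earlier results of these data known.

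Counts were analysed in R 4.3.3 with edgeR 4.0.16 (TMM, filterByExpr, robust quasi-likelihood F test, 3 groups in 1 fit, no covariate). Thresholds are those of the study's methods, which name DESeq2. A depth of 3 counts corresponded to 0.144 to 0.379 normalized CPM. Endothelium-relative levels are log2 CPM (prior count 2) minus the mean of 19 endothelial genes and were compared by exact permutation in Python 3.11.15 (numpy 2.4.6, pandas 2.3.3), with the two-sided p as the doubled smaller tail. Lengths are of the longest coding transcript in GENCODE M21 (GRCm38), and promoters are RefSeq GRCm38.p6. No positions of the GRCm39 genes were used. No 2 libraries were identical. Procedures were tested on simulated counts.

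Genes named from the lists are the 7 genes, up to 4 per list with the smallest p in O2-PBS against RA-PBS and up to 2 in O2-IC100 against O2-PBS, without animal 10 and at a mean of at least 1 CPM, all near copies, and the 3 closest genes of each. Esm1, Slco1c1, Cdh5, Sox7, Sox18 and Foxf2 are also given in other comparisons where they were called, and Rpe65 and Ttr for the pigment epithelium list and for animal 10, which was chosen after values were seen. Alternatives were DESeq2 1.42.0, limma 3.58.1 voom, other size factors and filters, non-robust fits, fits of 2 groups, each animal left out, and fits without animal 10 that added a covariate or left out animal 1. The pigment epithelium covariate was added after seeing the data.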

Additional observations from a re-analysis of the deposited data

Results flagged for a closer look

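In groups of 4 retinas, 6 of 21 sets of normalized CPM had 1 retina far from the other 3 by Dixon's criterion, which chance gives in about 5% of sets. Of these, 4 belong to O2-IC100 animal 10, the lens-rich retina. It had 6.44 CPM of Cldn5 (45.1 to 51.8 in the others), 507 of Tjp1 (128 to 136), 20.96 of Mfsd2a (4.51 to 6.38) and 95.1 of Slco1a4 (11.7 to 15.002). Cldn5 in O2-PBS animal 8 was 65.9 CPM where the other 3 were 42.6 to 42.9. Abcb1a in O2-PBS animal 5, the retina with the lowest Slco1a4, was 12.3 CPM where the others were 15.1 to 15.5.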

How the results depend on the processing

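No paired analysis was possible because the labels number the animals 1 to 12 across the groups and no number is shared. For O2-PBS against RA-PBS, the count of the 7 genes called higher was 1 in the fit of all animals, 0 with no filter on low counts (Plvap adjusted p = 0.149), and 2 with 1 called lower in fits of only those groups, without animals 1 and 10, and without animal 10 combined with the Y-linked covariate, DESeq2 or the pigment epithelium covariate. Leaving out animal 10 gave 2 called higher and 1 lower, and leaving out any other single animal gave 0 higher and 0 lower. For O2-IC100 against RA-PBS, 1 gene was called higher with the Y-linked covariate, and 1 higher and 1 lower with DESeq2 and with the pigment epithelium covariate (all without animal 10). Leaving out animal 10 alone gave 1 higher and 0 lower, and leaving out any other single animal gave 0 of each. Counts for O2-IC100 against O2-PBS were 0 in all 24 alternatives.

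Leaving out animal 10 turned several signs, and the cause was not tested. For O2-IC100 against O2-PBS the log2 fold changes became 0.0188 for Cldn5, -0.35 for Tjp1 and -0.000484 for Mfsd2a. Without animals 1 and 10 they were 0.0187, -0.35 and -0.00075. With the Y-linked covariate Cldn5 was 0.0271 and Tjp1 -0.571. With DESeq2 they were 0.000259, -0.368 and -0.0189. With the pigment epithelium covariate Tjp1 was -0.371, Mfsd2a -0.302 and Abcb1a 0.127, and Mfsd2a was 0.103 for O2-PBS against RA-PBS. For O2-IC100 against RA-PBS, Tjp1, Mfsd2a and Slco1a4 were -0.185, -0.368 and -0.902 without animal 10, -0.176, -0.489 and -0.865 without animals 1 and 10, -0.263, -0.365 and -0.895 with the Y-linked covariate, -0.206, -0.385 and -0.919 with DESeq2, and -0.176, -0.199 and -0.935 with the pigment epithelium covariate. In limma voom with all animals Slco1a4 was -0.431. Over all 12 animals left out in turn, O2-IC100 against O2-PBS ranged from -0.524 to 0.0188 for Cldn5, -0.35 to 0.604 for Tjp1 and -0.000484 to 0.962 for Mfsd2a, and O2-IC100 against RA-PBS from -0.185 to 0.768 for Tjp1, -0.368 to 0.593 for Mfsd2a and -0.902 to 0.732 for Slco1a4.

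Over all genes, O2-PBS against RA-PBS had 129 called higher and 4 lower, with 350 and 62 by DESeq2, 183 and 9 by limma voom, 570 and 297 with only those groups, 682 and 364 without animal 10 and 30 to 109 and 2 to 5 without any other animal. With animal 10 left out, the pigment epithelium covariate gave 1331 and 718.

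Of the 7 endothelium-relative levels, 5, 3 and 1 had an adjusted p under 0.1 in the 3 comparisons, and leaving out each animal of the comparison gave 0 in the first, 0 to 4 in the next and 0 to 4 in the last, where 4 against 3 animals cannot go below an exact permutation p of 0.0571 (the counts of 4 are without animal 10, where that p adjusts to 0.0923). For O2-IC100 against RA-PBS the difference of Cldn5 was -0.0377 with the reference of Pecam1, Cdh5, Tek and Tie1. Leaving out animals turned Cldn5 (-0.0149 to 0.303), Mfsd2a (-0.843 to 0.602), Slco1a4 (-1.42 to 0.327), Ocln (-0.423 to 0.607), Tjp1 (-0.705 to 0.681) and Plvap (-0.0886 to 0.787).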
